A study of Callithrix jacchus with 4 samples.

Results

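The genes described here build the machinery that brings proteins into mitochondria, that lets mitochondria fuse and divide, and that marks them for removal. They were chosen by name: every gene whose only symbol in the platform annotation was TIMM or TOMM followed by a number, with BNIP3, BNIP3L, FUNDC1, MFN1, MFN2, OPA1, DNM1L, FIS1, MFF, PHB1, PHB2 and OMA1. This gave 35 genes of the 18014 genes with a single symbol, read by 55 array features. Of these genes, 19 had 1 feature, 12 had 2 and 4 had 3.

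The samples were 4 male common marmosets, 3 years old, each injected once with MPTP (2.5 mg/kg, intravenous) and killed after 2 h or 6 h, or after 1 day or 14 days, and 1 male of the same age given vehicle. MPTP is a neurotoxin whose metabolite dopamine neurons take up, where it inhibits respiratory complex I. A strip of the substantia nigra pars compacta was cut from 1 side of the midbrain by laser, from toluidine blue-stained sections, so each sample holds the neurons, glia and vessels of that strip. After 2 rounds of amplification the RNA was read on arrays of human oligonucleotides, 1 array per time, with MPTP tissue in Cy5, vehicle tissue in Cy3 and no dye swap.

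Most mitochondrial proteins are encoded in the nucleus and made in the cytosol. They cross the outer membrane through the TOM complex, and the TIM23 and TIM22 complexes then sort them into the matrix and the inner membrane. Mitofusins and OPA1 join mitochondria, the dynamin-related protein DNM1L with its receptors cuts them, and BNIP3, BNIP3L and FUNDC1 tether damaged mitochondria to autophagosomes. Dopamine neurons of the nigra carry long, branched axons full of mitochondria, and genes of mitochondrial removal are mutated in some forms of inherited parkinsonism.

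All values below are on a log2 scale, MPTP over vehicle RNA, so 1 is 2-fold higher and −1 is 2-fold lower in the MPTP animal. A gene's value is the median over its features, and an SD is taken over those features, not over animals. With 1 animal per time and 1 vehicle sample on all 4 arrays, no difference could be tested against the spread between animals, and the vehicle animal's own level enters each ratio. The direction of the ratio was read from the dyes, and every sign would turn if it had been formed the other way. Fewer cells of a type and less RNA per cell cannot be told apart in such tissue. The SD over all genes was 0.71 at 2 h and 0.57 at 6 h, then 0.48 at 1 day and 0.47 at 14 days, so the 2 h array had the widest spread.

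At 2 h, 3 of the 35 genes were at least 2-fold higher than vehicle (8.57%, against 5.47% of all genes) and 5 were at least 2-fold lower (14.3%, against 7.22%). The higher ones were TIMM50, FIS1 and TIMM13, and the lower ones BNIP3L, TIMM9, TIMM10B, MFF and MFN2. At 6 h none was 2-fold higher (3.37% of all genes) and BNIP3L, OPA1 and TOMM34 were lower (8.57%, against 3.89%). At 1 day, when 2.27% of all genes were higher and 1.67% lower, and at 14 days, when these were 2.16% and 2.12%, no listed gene lay past 2-fold in either direction. With the arrays scaled to the same spread, 1 of the 35 was higher (2.86%, against 2.24% of all genes so scaled) and 3 lower (8.57%, against 2.88%) at 2 h. The higher one was TIMM50, and the lower ones BNIP3L, TIMM9 and TIMM10B. FIS1 at 0.88, TIMM13 at 0.77, MFF at −0.89 and MFN2 at −0.75 then fell short of 2-fold. At 1 day 1 was then higher (2.86%, against 4.59%) and 1 lower (2.86%, against 3.63%). Genes above 0 numbered 13, 16, 21 and 15 of 35 from 2 h to 14 days (37.1%, 45.7%, 60.0% and 42.9%), beside 52.1%, 53.2%, 52.3% and 51.3% of all genes. The median of the 35 genes was −0.19 at 2 h and −0.15 at 6 h, then 0.03 at 1 day and −0.09 at 14 days, beside 0.03, 0.03, 0.02 and 0.0095 over all genes. The median size of a listed gene's ratio, regardless of sign, was 0.39, 0.28, 0.15 and 0.23 at these times, against 0.35, 0.26, 0.18 and 0.21 for all genes. Typical ratios of the listed genes were thus about the size of those of other genes, with a few members far from vehicle at 2 h and 6 h.

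**Figure D1:**
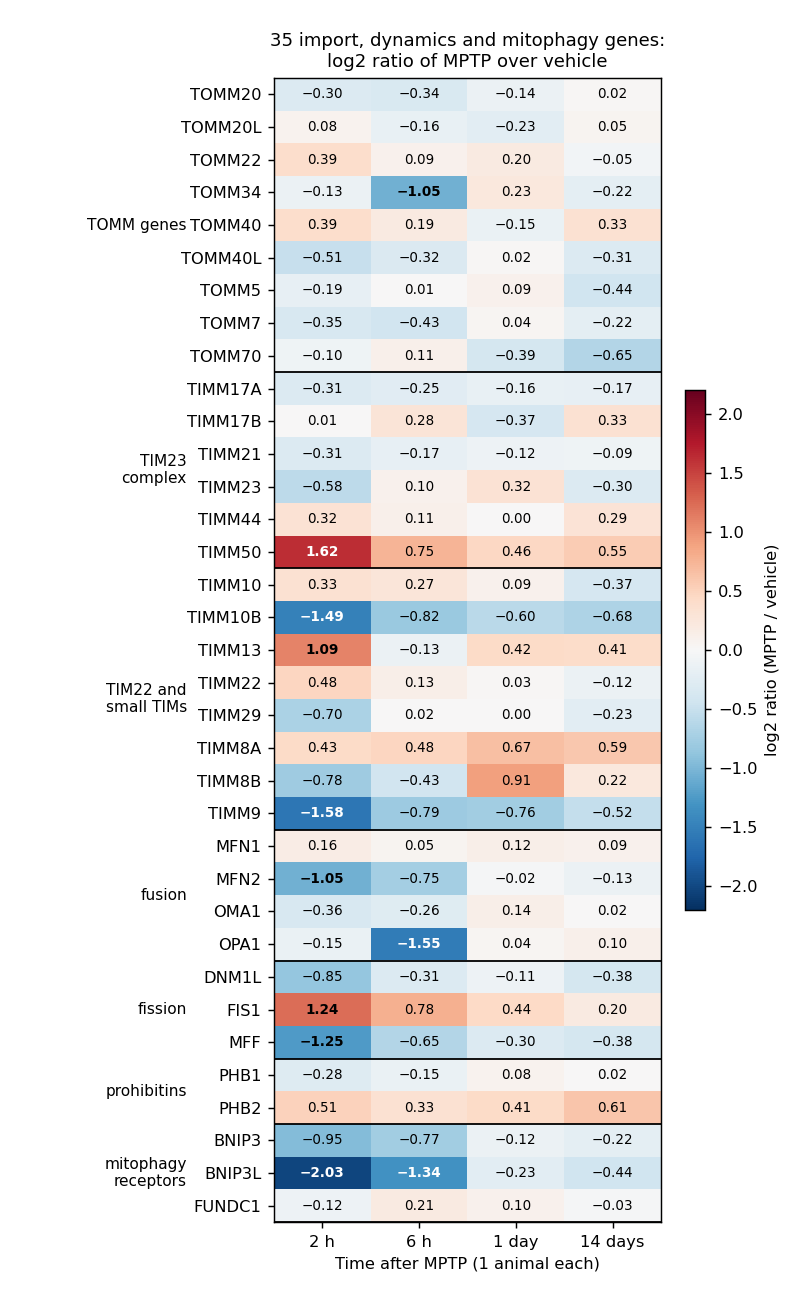
Log2 ratio of MPTP over vehicle for the 35 genes (down the page, grouped by role) on the 4 arrays (left to right, 2 h to 14 days after MPTP, 1 animal each), with red for higher and blue for lower in the MPTP animal and values of at least 1 in size in bold. The strongest colours lie in the 2 h and 6 h columns, with BNIP3L at −2.03 and TIMM50 at 1.62 at 2 h, and no bold value at 1 day or 14 days.

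**Figure D2:**
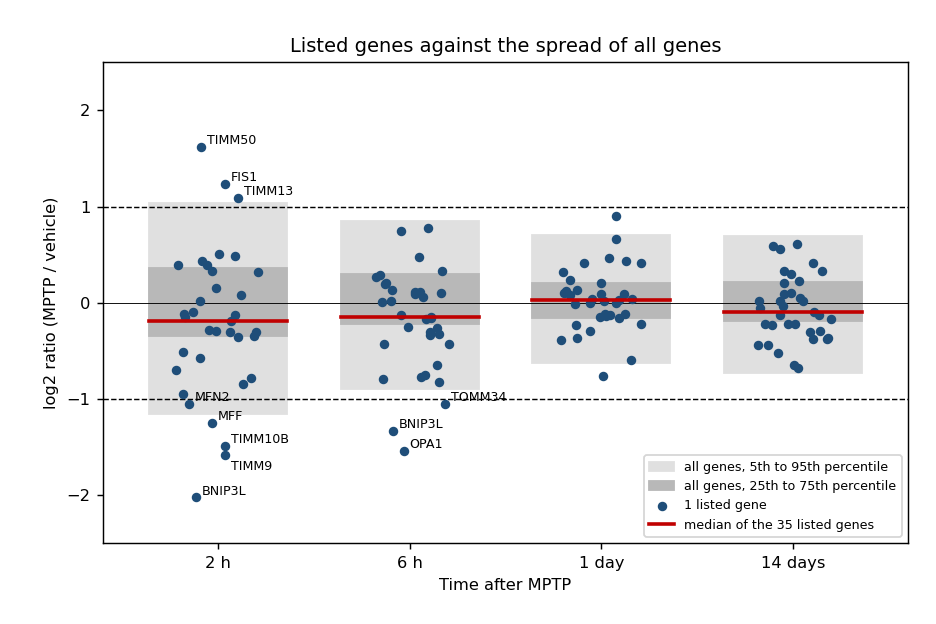
Log2 ratio of MPTP over vehicle at each time for the 35 genes (blue dots, with their median in red) over the range of all 18014 genes, in light grey from the 5th to the 95th percentile and in dark grey from the 25th to the 75th. Dashed lines mark 2-fold, and genes past them are named: 8 genes at 2 h, 3 at 6 h and none later.

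The genes of the mitophagy receptors held the lowest value of the set. BNIP3L, also called NIX, is an outer membrane protein that recruits autophagosomes and clears mitochondria from maturing red blood cells. It lay at −2.03 ± 0.50 at 2 h and −1.34 ± 0.73 at 6 h, then −0.23 ± 0.04 at 1 day and −0.44 ± 0.52 at 14 days (SD, 2 features). At 2 h this is 4.08-fold lower than vehicle, rank 109 from the bottom of 18014 genes, and at 6 h 2.53-fold lower, rank 297. Its 2 features read −2.38 and −1.68 at 2 h, so both passed 2-fold, and −1.86 and −0.82 at 6 h, so only 1 did. Among the 7411 genes with 2 or more features, 1.34% had all of them at least 2-fold lower at 2 h, and BNIP3L was the only one among the 16 such genes here. Features may be repeat spots of 1 probe, so their agreement may not be an independent second reading.

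BNIP3, a close relative of BNIP3L that is induced by low oxygen, lay at −0.95, −0.77, −0.12 and −0.22 from 2 h to 14 days, short of 2-fold at each time. FUNDC1, a receptor that also responds to low oxygen, stayed near vehicle with −0.12, 0.21, 0.10 and −0.03. The 3 receptors therefore did not share a pattern: BNIP3 and BNIP3L lay below 0 on all 4 arrays and were lowest at 2 h, and FUNDC1 lay on both sides of 0. As BNIP3 and BNIP3L are known targets of the hypoxia response, a list of 15 other hypoxia targets was read beside them, of which 14 were measured. Their median was −0.22 at 2 h and 0.03 at 6 h, then −0.0059 at 1 day and −0.0039 at 14 days. At 2 h only MXI1, a MYC antagonist, was at least 2-fold lower, at −1.26, and at 6 h only EGLN3, an oxygen-sensing prolyl hydroxylase, was higher, at 1.23.

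Genes of mitochondrial fission went both ways at 2 h. FIS1, an outer membrane protein that takes part in fission, lay at 1.24 ± 0.07 at 2 h and 0.78 ± 0.13 at 6 h, then 0.44 ± 0.52 at 1 day and 0.20 ± 0.13 at 14 days (SD, 2 features). Its value was 2.36-fold above vehicle at 2 h, with features at 1.18 and 1.29, and was smaller on each later array. All features of a gene were at least 2-fold higher at 2 h for 0.499% of the genes with 2 or more, and FIS1 was the only one of the 16 here. Its features, too, may be repeat spots of 1 probe.

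MFF, the main receptor that brings DNM1L to the outer membrane, lay on the other side of vehicle. It read −1.25 ± 0.57 at 2 h and −0.65 ± 0.02 at 6 h, then −0.30 ± 0.01 at 1 day and −0.38 ± 0.01 at 14 days (SD, 2 features). Both features were below 0 on every array, at −0.84 and −1.65 at 2 h. DNM1L itself, the GTPase that constricts mitochondria, lay at −0.85 ± 0.36, −0.31 ± 0.34, −0.11 ± 0.09 and −0.38 ± 0.11 from 2 h to 14 days (SD, 3 features). It did not reach 2-fold, although 1 of its 3 features read −1.34 at 2 h. FIS1 was thus above 0, and DNM1L and MFF below 0, on all 4 arrays.

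Of the 4 genes of fusion and OPA1 processing, MFN2 at 2 h and OPA1 at 6 h were at least 2-fold lower. MFN2, an outer membrane GTPase that also links mitochondria to the endoplasmic reticulum, lay at −1.05 at 2 h and −0.75 at 6 h, then −0.02 at 1 day and −0.13 at 14 days, from 1 feature. Its paralogue MFN1 read 0.16, 0.05, 0.12 and 0.09 at the same times, from 3 features with SDs of at most 0.31. At 2 h MFN2 thus read 2.08-fold lower and MFN1 close to vehicle, 1.11-fold higher. This contrast rests on 1 feature of MFN2 in 1 animal and was not tested. Features of MFN1 lay on both sides of 0 at 6 h and 14 days, so its median shows no clear direction.

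OPA1, the GTPase of inner membrane fusion and cristae, read −0.15 ± 1.29 at 2 h and −1.55 ± 0.79 at 6 h, then 0.04 ± 0.32 at 1 day and 0.10 ± 0.63 at 14 days (SD, 2 features). Its features disagreed at 2 h, at 0.76 and −1.06, and at 6 h 1 lay at −2.10 and the other at −0.99, just short of 2-fold. The 6 h value ranked 185 from the bottom of all genes. OMA1, the stress-activated protease that cleaves OPA1, lay at −0.36 ± 0.21 at 2 h and −0.26 ± 0.09 at 6 h, and within 0.14 of vehicle later. The prohibitins form a ring scaffold in the inner membrane, and PHB2 also serves as a mitophagy receptor there. PHB2 lay at 0.51, 0.33, 0.41 and 0.61 from 2 h to 14 days, above 0 on all 4 arrays from 1 feature. The medians over the 3 features of its partner PHB1 lay between −0.28 and 0.08. Single features of PHB1 ranged from −0.82 at 6 h to 0.19 at 1 day.

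**Figure D3:**
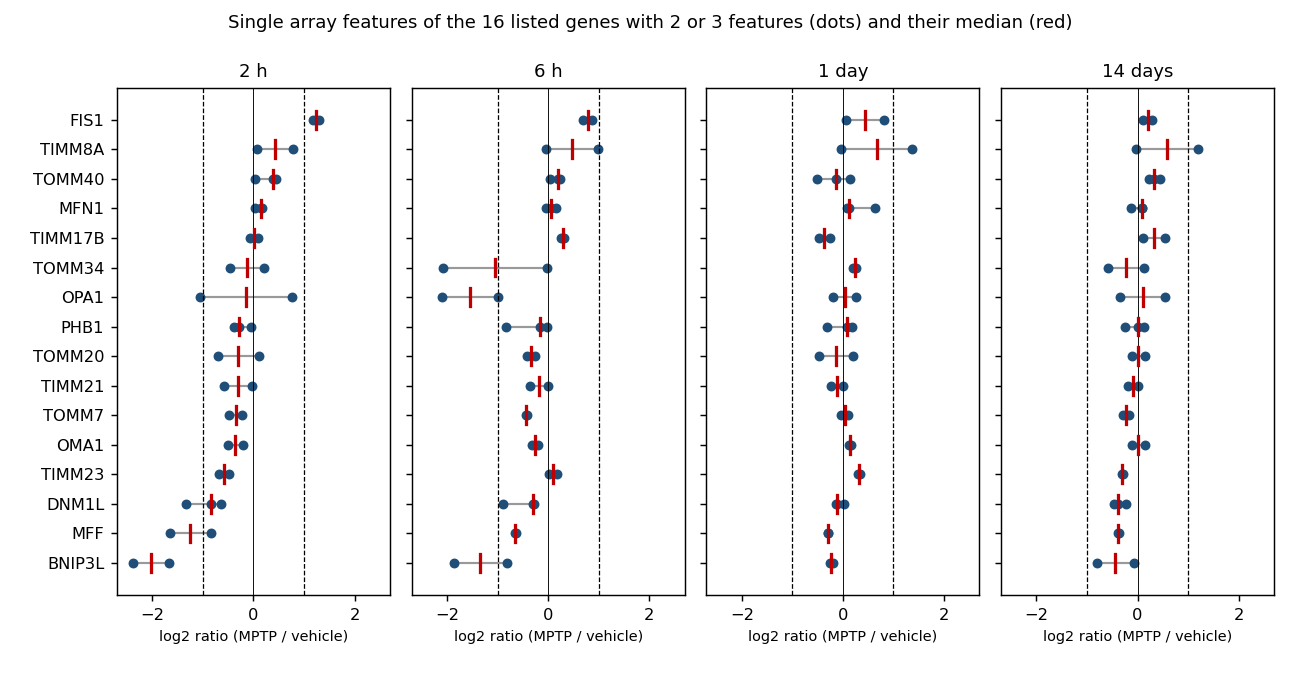
Log2 ratio of MPTP over vehicle of each array feature (dots) for the 16 genes with 2 or 3 features, with their median as a red tick and 1 panel per time from 2 h to 14 days. Features of BNIP3L lie below −1 and those of FIS1 above 1 at 2 h, while those of OPA1 at 2 h, of BNIP3L, OPA1 and TOMM34 at 6 h and of TIMM8A from 6 h on lie at least 1 apart.

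Of the 16 genes with 2 or more features, 4 had all features above 0 at 2 h, 7 had all below 0 and 4 had them on both sides, and TIMM21 had a feature at exactly 0 on every array. Features stood on both sides of 0 for 2 genes at 6 h, and for 7 at 1 day and at 14 days, when ratios were smaller. The median SD between the features of a gene was 0.29 at 2 h and 0.12 at 6 h, then 0.16 at 1 day and 0.15 at 14 days. Ratios of single-feature genes below that size are smaller than the typical SD between features on these arrays. Larger ones are not set apart by this, as SDs reached 1.29 for OPA1 at 2 h and 1.46 for TOMM34 at 6 h.

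Among the inner membrane translocase genes, those of the TIM23 complex, which moves proteins with a targeting sequence into the matrix, had TIMM50 well above the others. TIMM50 encodes the receptor that binds targeting sequences in the intermembrane space. It lay at 1.62 at 2 h and 0.75 at 6 h, then 0.46 at 1 day and 0.55 at 14 days, from 1 feature. This was 3.07-fold higher at 2 h, rank 254 from the top of all genes, and it was above 0 on all 4 arrays. The channel gene TIMM23 lay at −0.58 ± 0.13, 0.10 ± 0.10, 0.32 ± 0.04 and −0.30 ± 0.02 (SD, 2 features), so it lay below vehicle at 2 h and 14 days and above it between, with features that differed little. A near-identical copy, TIMM23B, exists in the human annotation, so a feature may read both.

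The other 4 TIM23 genes stayed within 0.37 of vehicle on every array. TIMM44, which anchors the import motor, lay between 0.0010 and 0.32, above 0 at each time. TIMM17A lay between −0.31 and −0.16 and its paralogue TIMM17B between −0.37 and 0.33, both channel subunits. TIMM21, which links TIM23 to the respiratory chain, lay between −0.31 and −0.09. Of its 2 features, 1 held an exact 0 at every time and the second read −0.59, −0.35, −0.23 and −0.19 from 2 h to 14 days.

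The small TIM proteins are chaperones of the intermembrane space that escort membrane proteins to the TIM22 complex, and their genes included the lowest values of the inner membrane group at 2 h. TIMM9, which forms a hexameric chaperone with TIMM10, lay at −1.58 at 2 h and −0.79 at 6 h, then −0.76 at 1 day and −0.52 at 14 days. TIMM10B, a related small TIM held at the TIM22 complex, lay at −1.49, −0.82, −0.60 and −0.68. They were the only 2 of the 35 genes that were at least 0.5 away from 0 in 1 direction on all 4 arrays. Their ranks from the bottom of 18014 genes were 344 and 427 at 2 h, and 1667 and 1036 at 14 days. Each had 1 feature, so no second reading of either was available.

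TIMM10, the partner of TIMM9, did not follow it. It lay at 0.33, 0.27, 0.09 and −0.37 from 2 h to 14 days. The other chaperone pair, TIMM8A with TIMM13, lay mostly above vehicle. TIMM13 read 1.09 at 2 h, 2.12-fold higher than vehicle, then −0.13, 0.42 and 0.41, from 1 feature. TIMM8A, the gene of the deafness-dystonia syndrome, read 0.43 ± 0.51, 0.48 ± 0.72, 0.67 ± 0.99 and 0.59 ± 0.86 (SD, 2 features). These SDs come from 1 feature between 0.79 and 1.36 and another between −0.03 and 0.07, so the features do not settle a level.

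TIMM8B, a relative of TIMM8A, lay on both sides of 0, at −0.78 at 2 h and −0.43 at 6 h, then 0.91 at 1 day and 0.22 at 14 days. Its 1 day value, from 1 feature, was the highest of the 35 genes on that array. The value ranked 530 from the top of all genes. TIMM22, the channel of the carrier pathway, lay between −0.12 and 0.48, and TIMM29, a TIM22 subunit of animals, at −0.70 at 2 h and between −0.23 and 0.02 later.

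Genes named TOMM were past 2-fold only once. None of the 9 TOMM genes was 2-fold higher on any array, and only TOMM34, a cytosolic cochaperone that delivers precursors, was 2-fold lower, at 6 h. TOMM34 read −0.13 ± 0.47, −1.05 ± 1.46, 0.23 ± 0.04 and −0.22 ± 0.51 (SD, 2 features), and its 6 h value joins features of −2.08 and −0.02. TOMM40, the pore of the complex, lay at 0.39 ± 0.22, 0.19 ± 0.11, −0.15 ± 0.33 and 0.33 ± 0.11 (SD, 3 features).

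Of the TOM receptors, TOMM70, which binds chaperone-bound precursors, lay at −0.10, 0.11, −0.39 and −0.65, its lowest at 14 days. At that time it was the second lowest of the 35 genes after TIMM10B. The presequence receptor TOMM20 lay between −0.34 and 0.02 and TOMM22, the central receptor, between −0.05 and 0.39. The small subunits TOMM5 and TOMM7 lay between −0.44 and 0.09, and the homologues TOMM20L and TOMM40L between −0.51 and 0.08. The median over the TOMM genes was −0.13, −0.16, 0.02 and −0.22 from 2 h to 14 days.

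Over the 4 arrays together, 6 of the 35 genes lay above 0 each time (17.1%, against 23.5% of all genes). These were FIS1, MFN1, PHB2, TIMM44, TIMM50 and TIMM8A. The 9 that lay below 0 each time (25.7%, against 18.5%) were BNIP3, BNIP3L, DNM1L, MFF, MFN2, TIMM9, TIMM10B, TIMM17A and TIMM21. The arrays share the vehicle sample, so they are not independent readings of a gene. At least 1 array past 2-fold in either direction was found for 10 of the 35 genes (28.6%), against 20.5% of all genes.

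Differences between 2 arrays compare MPTP animals with each other, and the vehicle value cancels as far as its hybridisations agree. At 14 days against 2 h, 3 of the 35 genes were at least 2-fold higher (8.57%, against 4.85% of all genes) and 2 at least 2-fold lower (5.71%, against 4.33%). BNIP3L differed by 1.58, at −0.44 at 14 days against −2.03 at 2 h. TIMM9 differed by 1.06 and TIMM8B by 1.01 in the same direction. TIMM50 differed by −1.06, at 0.55 at 14 days against 1.62 at 2 h, and FIS1 by −1.04, at 0.20 at 14 days against 1.24 at 2 h. Of the other 4 genes past 2-fold at 2 h, MFN2, MFF and TIMM10B differed by 0.92, 0.87 and 0.81, and TIMM13 by −0.67. All 8 were thus nearer to vehicle at 14 days, as were 96.2% of the 2286 genes past 2-fold at 2 h, so this is no mark of the listed genes. With the arrays scaled to the same spread, none of the 35 genes differed by 2-fold between 14 days and 2 h, against 3.43% of all genes higher and 3.14% lower.

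**Figure D4:**
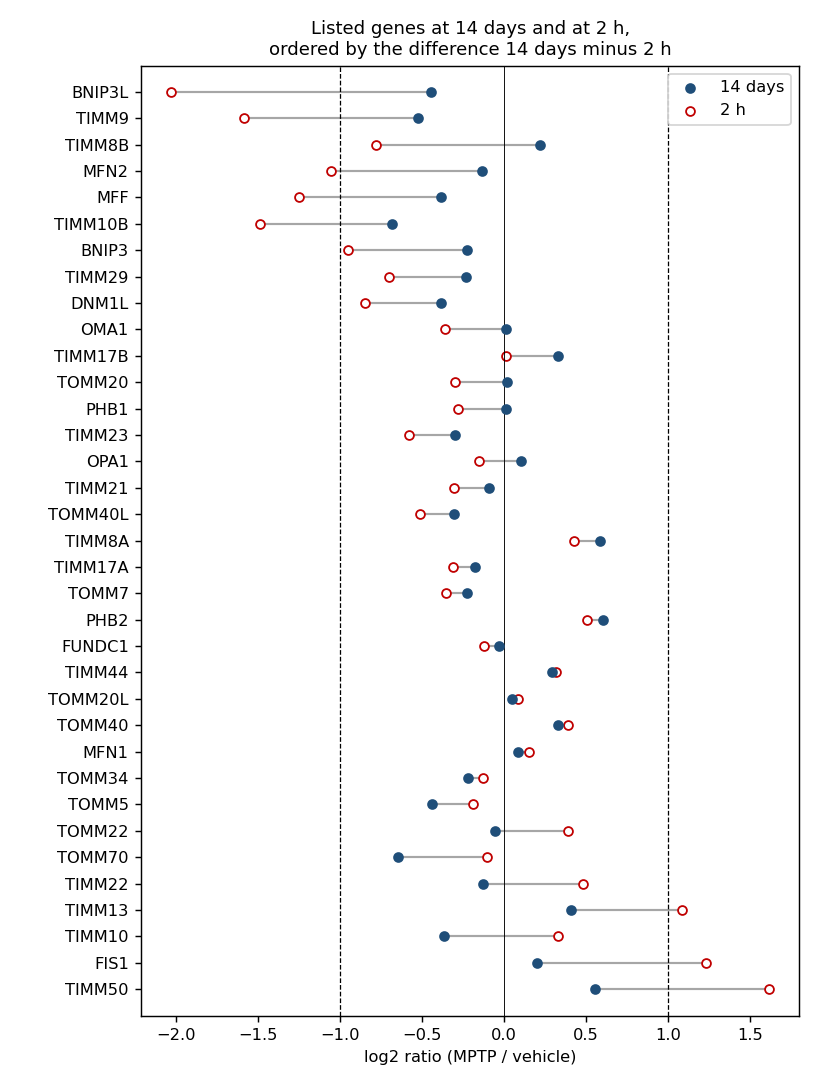
Log2 ratio of MPTP over vehicle of the 35 genes at 14 days (filled blue) and at 2 h (open red), ordered from top to bottom by the difference of 14 days minus 2 h. The 8 genes past 2-fold at 2 h are at most 0.68 in size at 14 days, and BNIP3L and TIMM50 are at the top and the bottom of the order.

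Step by step, 2 genes were at least 2-fold lower at 6 h than at 2 h (5.71%, against 3.98% of all genes) and none was higher (4.9%). OPA1 differed by −1.39 and TIMM13 by −1.21. At 1 day against 6 h, 4 genes were at least 2-fold higher (11.4%, against 3.59%) and none lower (2.69%). OPA1 was higher by 1.58, TIMM8B by 1.33, TOMM34 by 1.29 and BNIP3L by 1.11. Between 14 days and 1 day no gene of the 35 differed by 2-fold, against 2.26% of all genes higher and 2.53% lower. The median differences were 0.09 for 6 h minus 2 h, 0.11 for 1 day minus 6 h and −0.10 for 14 days minus 1 day, beside 0.0073, −0.011 and 0.00092 over all genes. At 6 h, 20 of the 35 genes lay above their 2 h value, against 50.6% of all genes. At 1 day, 24 lay above their 6 h value, against 47.3%. At 14 days, 10 lay above their 1 day value, against 50.3%. The last 2 counts share the 1 day array, from 1 animal.

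Other genes of the same pathways, mitochondrial biogenesis genes and the hypoxia targets named above were read from 6 lists with 114 genes. Of these, 111 were measured, and the counts below pool all 6 lists under the name of other pathway genes. At 2 h, 3 of the 111 (2.7%) were at least 2-fold higher and 7 (6.31%) lower. At 6 h, 5 (4.5%) were higher and 3 (2.7%) lower. At 1 day, 2 (1.8%) were higher and 3 (2.7%) lower, and at 14 days 1 (0.901%) was higher and none lower. These shares lay below those of all genes at 2 h, and lay on both sides of them at 6 h and 1 day. Among 23 partners of protein import, CHCHD4 of the disulphide relay that folds the small TIMs lay at 1.69, 1.27, 0.59 and 0.97 from 2 h to 14 days. ROMO1, a small inner membrane protein, lay at 1.21, 0.83, 0.83 and 0.92. DNAJC19 of the import motor read −1.56 ± 1.02 at 2 h (SD, 2 features) and between 0.09 and 0.48 later, while its relative DNAJC15 read 1.12 at 6 h. MTX3, a metaxin, lay at 3.99 at 1 day from 1 feature that was listed as exactly 0 at 6 h and 14 days.

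Of 28 partners of dynamics and cristae, MTFP1, an inner membrane protein that promotes fission, lay at 0.72, 1.89, 1.52 and 0.81. GDAP1, an outer membrane protein mutated in Charcot-Marie-Tooth disease, was just past 2-fold lower at 2 h, lay at −2.37 at 6 h and −0.81 at 1 day and was listed at exactly 0 at 14 days. SLC25A46, which helps to balance fusion, lay at −1.45 at 2 h, and MICOS13 of the cristae junction at 1.23 at 6 h. IMMT, or mitofilin, read 2.07 ± 3.18 at 14 days and PGAM5, an outer membrane phosphatase, −1.16 ± 0.99 at 1 day (SD, 2 features each), so their features disagree. Of 8 inner membrane proteases only YME1L1, which also cleaves OPA1, was past 2-fold, at −1.08 at 2 h.

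Of 27 measured partners of mitophagy, 1 was at least 2-fold higher at 2 h, 1 lower at 6 h and 1 lower at 1 day. AMBRA1, an activator of autophagy, lay at 1.02 at 2 h, NIPSNAP2, a tag of damaged mitochondria, at −4.22 at 6 h and ATG13 of the initiation complex at −1.66 ± 2.07 at 1 day (SD, 2 features). AMBRA1 and NIPSNAP2 had 1 feature each, and NIPSNAP2 read −0.94, −0.02 and −0.33 at 2 h, 1 day and 14 days. PINK1, the kinase that marks depolarised mitochondria, lay at −0.31, 0.02, 0.21 and 0.08, and the median of the list was 0.04, −0.0058, −0.00092 and −0.03. Of 11 genes of mitochondrial biogenesis, the transcription and ribosomal RNA methylation factors TFB2M and TFB1M were past 2-fold, TFB2M at −1.10 at 6 h and TFB1M at −3.59 at 1 day, from 1 feature each. Their list had medians of 0.16, 0.19, 0.20 and 0.12.

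Markers of other cells differed from vehicle on the same arrays, and their part in the ratios of the 35 genes was not tested. Levels of the markers cannot be read from ratios, so the labelled tissue could not be checked by them. Markers of dopamine neurons had medians of 0.26, 0.22, 0.21 and 0.13 over 14 genes, none of them 2-fold lower at any time, with TH at 0.90 ± 0.52 at 2 h and 0.50 ± 0.59 at 14 days (SD, 2 features). At least 2-fold higher were 2, 1, 2 and 0 of the 14 from 2 h to 14 days. The highest were LMX1B at 1.76 at 2 h and ALDH1A1 at 1.06 at 6 h and 1.23 at 1 day, from 1 feature each. The lowest at 2 h was DDC at −0.76. Astrocyte markers had a median of −0.48 at 2 h, with 8 of 10 below 0 and 3 at least 2-fold lower, and of −0.21, −0.02 and 0.012 later. Erythroid markers, whose cells are known to use BNIP3L, had medians of 0.73, 0.10, 0.49 and 0.81 over 8 genes. Above 0 were 7, 4, 7 and 7 of the 8 from 2 h to 14 days. At 2 h HBA1 read 2.66 from 1 feature and HBA2 1.19 ± 2.01 (SD, 2 features), so the features of HBA2 disagree. The lowest erythroid marker was EPB42 at −0.41 at 2 h and HBD at −0.43 at 6 h. The medians of GABA neuron markers were 0.03, −0.79, −0.36 and −0.66 over 6 genes, with GAD2 at −2.18 at 2 h from 1 feature. At that time 3 of the 6 lay above 0, with PVALB the highest at 0.35. Oligodendrocyte medians lay between −0.18 and 0.08 over 9 genes, with ERMN at −1.46 ± 0.16 at 2 h and −1.60 ± 0.04 at 6 h and MBP at −1.57 ± 0.94 at 6 h (SD, 2 features each), so that 1, 2, 1 and 0 of the 9 were at least 2-fold lower from 2 h to 14 days. Others lay above 0, namely 4, 5, 3 and 6 of the 9 at these times. The highest were MAG at 0.64 at 2 h and MOG at 0.75 at 6 h, and none was 2-fold higher. Medians of microglia markers (9 genes) lay between 0.011 and 0.42, and those of vessels (10 genes) between 0.09 and 0.34. From 2 h to 14 days, 1, 0, 0 and 1 of the 9 microglia markers were at least 2-fold higher. These were TYROBP at 2.01 at 2 h and C1QC at 1.58 at 14 days. Of the 10 vessel markers, 0, 1, 1 and 2 were at least 2-fold higher. PDGFRB was so from 6 h on, at 1.03 at 14 days, and TIE1 at 14 days, at 3.85. Only TIE1 at 6 h was at least 2-fold lower, at −1.12. These named markers had 1 feature each. Below 0 were 4, 4, 4 and 1 microglia and 4, 3, 3 and 2 vessel markers.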

How the data were processed

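The table deposited by the authors held 43931 features with 1 value per array, taken as the log10 of Cy5 over Cy3. Scale and direction were inferred from the dyes and the values: the medians of the columns were 0.00633, 0.000146, 0.000277 and 0, the largest size was 2, and 4.7% to 7.38% of values were exact zeros. How the authors corrected background and normalized is not given in the sources used here. No intensities were used, so signal over background is unknown, and the number of arrays limits the precision.

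Values were converted to log2, each array was centred on its median, and genes were named through the platform annotation, which gave 29033 features 1 symbol, 97 several (not used) and 14801 none. Of the 35 genes, 33 matched the marmoset RefSeq gene table (assembly calJac240_pri) by symbol, and TIMM23 and TOMM7 did not. No test was run, as each group is 1 sample, and a 2-fold threshold was used. Features may be repeat spots of 1 probe. Named genes were those past 2-fold on any array, those at least 0.5 from 0 in 1 direction on all 4, the extremes of each role group, and from each other list up to 3 per time past 2-fold. Some cell type markers that this rule allows are left out of the text. The genes and lists were chosen with earlier results of these data known. Alternatives were no centring, the mean over features, zeros as not measured, arrays scaled to 1 spread, only genes with 2 or more features (also all passing), a 3-fold threshold and each array left out. Scripts (Python 3.11.15, pandas 2.3.3, numpy 2.4.6) were tested on simulated data.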

Additional observations from a re-analysis of the deposited data

Results flagged for a closer look

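TIE1, an endothelial receptor read as a vessel marker, lay at 3.85 at 14 days and at −1.12 at 6 h, from 1 feature. It drew attention because it was at least 2-fold higher at 1 time and at least 2-fold lower at another, in 1 animal each, and the difference was not tested. None of the 35 import, dynamics and mitophagy genes did this.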

How the results depend on the processing

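All 30 counts and medians kept their value within 1.5 times, or within the SD between features, without centring, with the mean over features and with exact zeros as not measured. The 8 counts of genes on 1 side of 0 that leave out 1 array also did. With scaled arrays, genes of the 35 past 2-fold numbered 1 higher and 3 lower at 2 h and 1 higher and 1 lower at 1 day. For 14 days minus 2 h they then numbered 0 higher and 0 lower, and 1 was lower for 6 h minus 2 h. Other pathway genes then numbered 1 higher and 2 lower at 2 h, 6 higher and 5 lower at 1 day and 4 higher at 14 days. At 3-fold, 1 gene was higher and 1 lower at 2 h, 0 lower at 6 h, 0 lower for 6 h minus 2 h, 0 higher for 1 day minus 6 h and 0 higher and 0 lower for 14 days minus 2 h. Other pathway genes were then 1 higher and 0 lower at 2 h, 1 higher at 6 h and 1 higher at 1 day. With only the 16 genes that have 2 or more features, 1 was higher and 2 lower at 2 h, 3 were above and 4 below 0 on all arrays, 1 was lower for 6 h minus 2 h, and 1 was higher and 1 lower for 14 days minus 2 h. Other pathway genes were then 0 higher and 2 lower at 2 h, 0 higher and 0 lower at 6 h and 0 higher at 1 day. Requiring all features to pass left 1 higher and 1 lower at 2 h and 0 lower at 6 h. The stricter threshold and the smaller sets lower counts by construction, and the scaling makes the 2 h array narrower and the 1 day and 14 days arrays wider. At 3-fold, and for genes with 2 or more features apart from all passing at 2 h, shares of all genes were not worked out. With scaled arrays they are given above for 2 h, 1 day and 14 days minus 2 h only. Counts without such a share are therefore not compared with all genes. No paired analysis was possible because each time is 1 sample. With 1 animal per time, no result has a replicate check.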

Other observations

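2 features outside the 35 genes carry TIMM23B with another symbol. The feature annotated with both TIMM23B and TIMM23 lay at −0.23, −0.0098, −0.34 and −0.06 from 2 h to 14 days, while TIMM23 itself lay at −0.58, 0.10, 0.32 and −0.30. The feature annotated with TIMM23B and the pseudogene PARGP1 lay at 0.21, 0.13, 0.08 and 0.91. TIMMDC1, a complex I assembly factor with a similar name, stayed within 0.09 of vehicle, at −0.03, 0.08, −0.02 and 0.014.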
